A study of Mus musculus with 24 samples.

Results

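The libraries described here came from Neuro2A cells, a mouse neuroblastoma line, that expressed either DiCas7-11 or RfxCas13d. They were chosen by their labels, and make up 12 of the 24 RNA-seq libraries in the series, with 6 libraries for each effector. Within each effector, 3 libraries carried a crRNA against the mouse ataxin-2 mRNA (mATXN2 arm) and 3 carried the non-targeted control (NTG arm; the columns of the count table name this control EV, so whether it held an NTG crRNA or an empty vector is not settled by these sources, and the columns name the targeting arm G12 where the sample titles say G10). Plasmids encoding the effector from a CAG promoter and the crRNA from a U6 promoter were delivered with a lipid transfection reagent, and cells were harvested at 48 hr. All 12 libraries therefore share the cell line, the transfection reagent and the harvest time, and they differ in the effector with its plasmid and in the crRNA. As the sources describe it, the DiCas7-11 plasmid has its own crRNA scaffold as well as its own coding sequence. Effects of the effector, its plasmid and its scaffold cannot be told apart here. The remaining libraries used for orientation are 6 of HiFi-RfxCas13d, an engineered variant of RfxCas13d, with the same pair of crRNA arms, and 3 of untransfected cells. The other 3 libraries of the series come from cells given an antisense oligonucleotide (ASO). They entered the gene filter, the normalization and the fit of all 24 libraries, and their values are not described here. The table counts mouse genes, so the level of each effector's own mRNA and the share of transfected cells were not analysed here.

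DiCas7-11 is a sub-type III-E CRISPR effector from Desulfonema ishimotonii, a single protein that cuts a bound RNA at fixed positions through Cas7-like domains. RfxCas13d is the Cas13d nuclease of Ruminococcus flavefaciens XPD3002, which cuts with a pair of HEPN domains and, once it has bound its target, can also cut bystander RNA. Mammalian cells answer foreign nucleic acid through sensors such as RIG-I and cGAS, which lead to interferon and to a large set of interferon-stimulated genes. Low oxygen stabilises hypoxia-inducible factors, which raise the enzymes of glycolysis, glucose transporters and a set of survival and angiogenic genes.

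Depth was alike for both effectors, with 13607843 to 19820230 counts per DiCas7-11 library and 14212492 to 18505568 per RfxCas13d library, and the 10 most abundant genes held 4.47% to 4.75% and 4.6% to 4.88% of the counts. The 3 NTG libraries of DiCas7-11 differed from each other more than those of any other group, with 3.33 to 5.58 times the counting noise per gene against 1.68 to 2.55 elsewhere. The neuroblast markers summed to 1895 to 2034 CPM (counts scaled to library size by TMM) with DiCas7-11 and 1978 to 2051 with RfxCas13d, with Chgb, Tubb3, Chga and Phox2a well expressed and Nefl and Nefm near 0. Of the 12 neuroblast markers tested, 2 passed the test, Tubb3 (-0.12 on the log2 scale, DiCas7-11 minus RfxCas13d) and Ina (0.07). The summed markers of astrocytes, of microglia and leukocytes and of erythroid cells stayed below 1 CPM in every library of both effectors. Oligodendrocyte markers summed to 13.9 to 17.8 CPM with DiCas7-11 and 14.8 to 16.8 with RfxCas13d, endothelial markers to 5.98 to 8.93 and 7.75 to 9.2, and fibroblast markers to 5.70 to 7.02 and 5.16 to 8.24, and none of the markers of other cell types passed the test.

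The targeted gene, Atxn2, encodes the RNA-binding protein ataxin-2. In the NTG arm it stood at 115, 120 and 119 CPM with DiCas7-11 and at 120, 121 and 125 CPM with RfxCas13d. In the mATXN2 arm it stood at 101, 106 and 102 CPM with DiCas7-11 and at 116, 112 and 113 CPM with RfxCas13d. With each effector, every mATXN2 library was below every NTG library. Averaged over the arms, Atxn2 was lower with DiCas7-11, with a log2 fold change of -0.09 ± 0.03 (SE) and an adjusted p of 0.0174 (edgeR's quasi-likelihood test). The difference was -0.05 in the NTG arm (adjusted p = 0.601) and -0.14 in the mATXN2 arm (adjusted p = 0.0197), and the difference between the arms did not pass the test (adjusted p = 0.693). Without the NTG replicate 3 of RfxCas13d the averaged difference was -0.09, with an adjusted p of 0.0528 that no longer passed the threshold of 0.05. Untransfected cells held 123 ± 1.78 CPM (SD, n = 3) and HiFi-RfxCas13d 110 ± 10.6 CPM (SD, n = 6). The HiFi-RfxCas13d value pools both crRNA arms, so its SD also holds any difference between them.

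Across all genes, DiCas7-11 and RfxCas13d libraries differed by many small changes and a smaller number of larger ones, and most of the larger ones were lower with DiCas7-11. Here a gene is called when its adjusted p is under 0.05 in the average of both arms, and a negative log2 fold change means a lower level with DiCas7-11. Of 13901 genes tested, 736 were called higher with DiCas7-11 (5.29%) and 843 lower (6.06%). The median size of the called changes was 0.14 on the log2 scale. Of the called genes, 16 rose and 69 fell by more than 0.5. All 6 DiCas7-11 libraries lay above all 6 RfxCas13d libraries for 226 genes (1.63%) and below them for 284 genes (2.04%). The median change over all tested genes was -0.002.

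**Figure D1:**
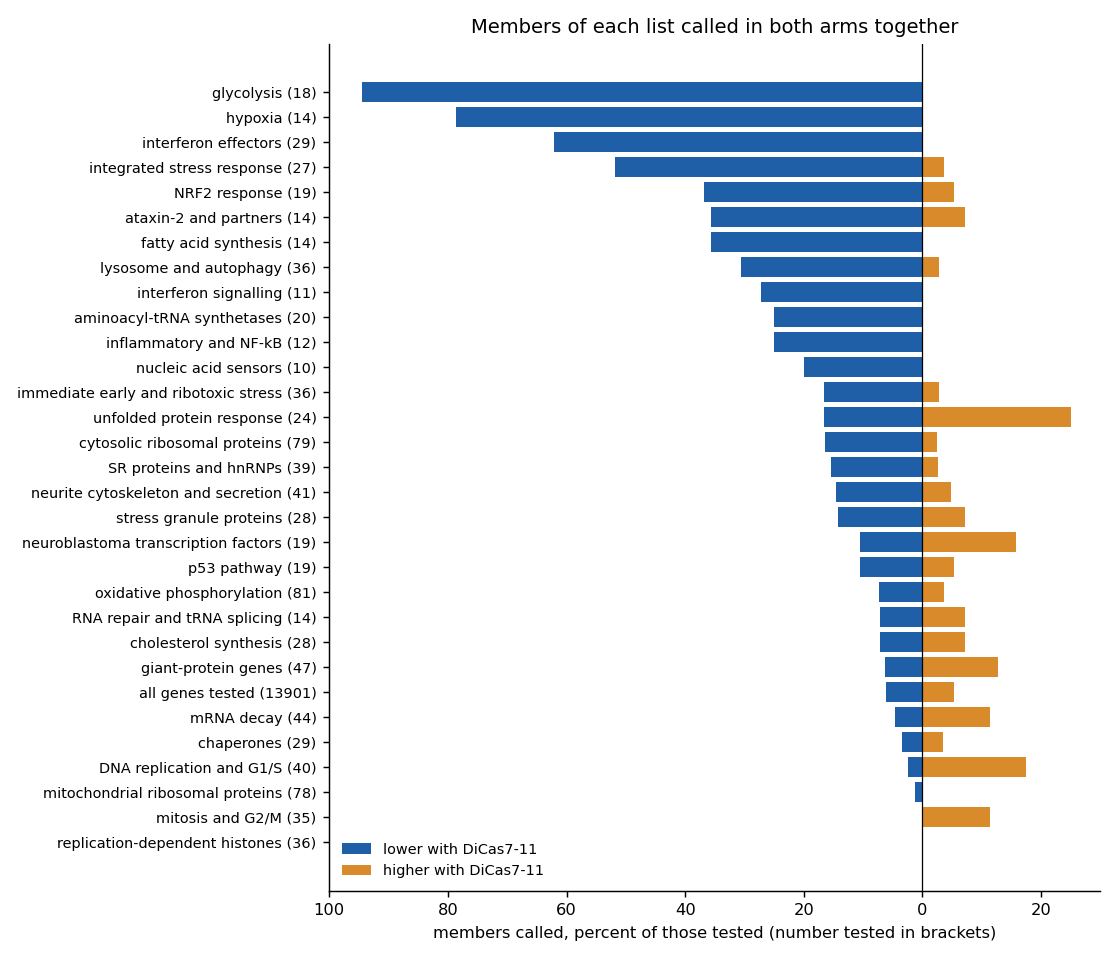
Percent of the tested members of each gene list that were called in the average of both arms, with members lower with DiCas7-11 to the left and higher to the right, and the number tested in brackets. Glycolysis (94.4% lower), hypoxia (78.6%) and interferon effectors (62.1%) stand farthest to the left, against 6.06% of all genes.

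The interferon list held many members that were lower with DiCas7-11, most of them effectors. Of 50 tested members, 23 fell and 0 rose, and the other members did not pass the test. Among the 29 effectors 18 fell (62.1%, against 6.06% of all genes), the median change was -0.37, and every one of the 29 had a value below 0. Of 10 sensors 2 fell (median -0.08), and of 11 signalling genes 3 fell (median -0.06). In libraries of mixed cells such as these, fewer responding cells and less RNA per responding cell cannot be told apart. List members named here beyond the 4 largest called changes of a list were picked as examples after their values were seen.

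Oas1a, one of the oligoadenylate synthetases that make the activator of RNase L on binding double-stranded RNA, held 3.48, 6.76 and 8.30 CPM (lowest, median and highest of 6 libraries) with DiCas7-11 and 10.6, 14.1 and 16.8 with RfxCas13d. Every DiCas7-11 library was below every RfxCas13d library, and the log2 fold change was -1.16 ± 0.17 (adjusted p = 1.84e-05). Its relatives behaved alike: Oas1g held 1.31, 1.57 and 1.83 CPM against 2.08, 3.67 and 4.25 (-1.16 ± 0.19, adjusted p = 0.000109), and Oas2, a low gene, 0.186, 0.612 and 0.786 CPM against 0.845, 1.78 and 3.42 (-1.80 ± 0.37, adjusted p = 0.00162). Oas1a and Oas1g are close paralogs, and estimated counts can divide shared reads between them. Usp18, the protease that removes ISG15 from proteins and dampens interferon signalling, held 2.55, 3.92 and 5.92 CPM against 5.52, 9.35 and 12 (-1.16 ± 0.17, adjusted p = 1.84e-05), with an overlap of the highest DiCas7-11 library and the lowest RfxCas13d library.

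The transcription factor Irf7, which amplifies interferon production, held 1.55, 1.84 and 2.36 CPM against 2.86, 4.30 and 4.62 (-1.11 ± 0.18, adjusted p = 7.13e-05). Ddx58, which encodes the RNA sensor RIG-I, held 18.3, 19.6 and 21.1 CPM against 22.7, 30.7 and 34.9 (-0.60 ± 0.08, adjusted p = 7.54e-06). Neither gene's libraries overlapped between the effectors. Eif2ak2, the double-stranded RNA kinase PKR, was the other sensor called (-0.18 ± 0.04), and Irf9 (-0.40 ± 0.09), a transcription factor of the interferon response, was among the signalling genes called.

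The more abundant effectors Ifi27, Bst2 and B2m moved less on the log scale, with smaller errors. Ifi27 held 90.7, 104 and 116 CPM against 135, 158 and 170 (-0.60 ± 0.07, adjusted p = 8.98e-07). Bst2, the membrane tether that holds back budding virus, held 18.2, 22.3 and 23.4 CPM against 25.9, 32.5 and 39.0 (-0.61 ± 0.07, adjusted p = 4.8e-07). B2m, the light chain of MHC class I, held 115, 121 and 131 CPM against 139, 158 and 161 (-0.35 ± 0.03, adjusted p = 4.43e-09). None of these 3 genes' libraries overlapped. Effectors that did not pass the test include Ifit1 (-0.18 ± 0.07, adjusted p = 0.122), Ifit2 (-0.23 ± 0.09, adjusted p = 0.117) and the chemokine gene Cxcl10 (-0.22 ± 0.11, adjusted p = 0.231). Among sensors and signalling genes, Cgas (0.07), Mavs (-0.03), Irf3 (-0.001), Tbk1 (0.03) and Jak1 (0.05) also stayed above the threshold of adjusted p.

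Untransfected and HiFi-RfxCas13d cells place these levels. For all 23 called members the mean of the DiCas7-11 libraries lay between that of untransfected cells and that of RfxCas13d, and for 19 of the 23 the HiFi-RfxCas13d mean lay below that of DiCas7-11. Oas1a averaged 0.517 CPM in untransfected cells, 4.15 with HiFi-RfxCas13d, 6.35 with DiCas7-11 and 14 with RfxCas13d. B2m averaged 113, 125, 121 and 155 CPM in the same order of groups. The median effector was 1.36 to 1.74 above the untransfected mean in the RfxCas13d libraries and 0.94 to 1.24 in the DiCas7-11 libraries (log2 ratio with 0.5 CPM added).

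**Figure D2:**
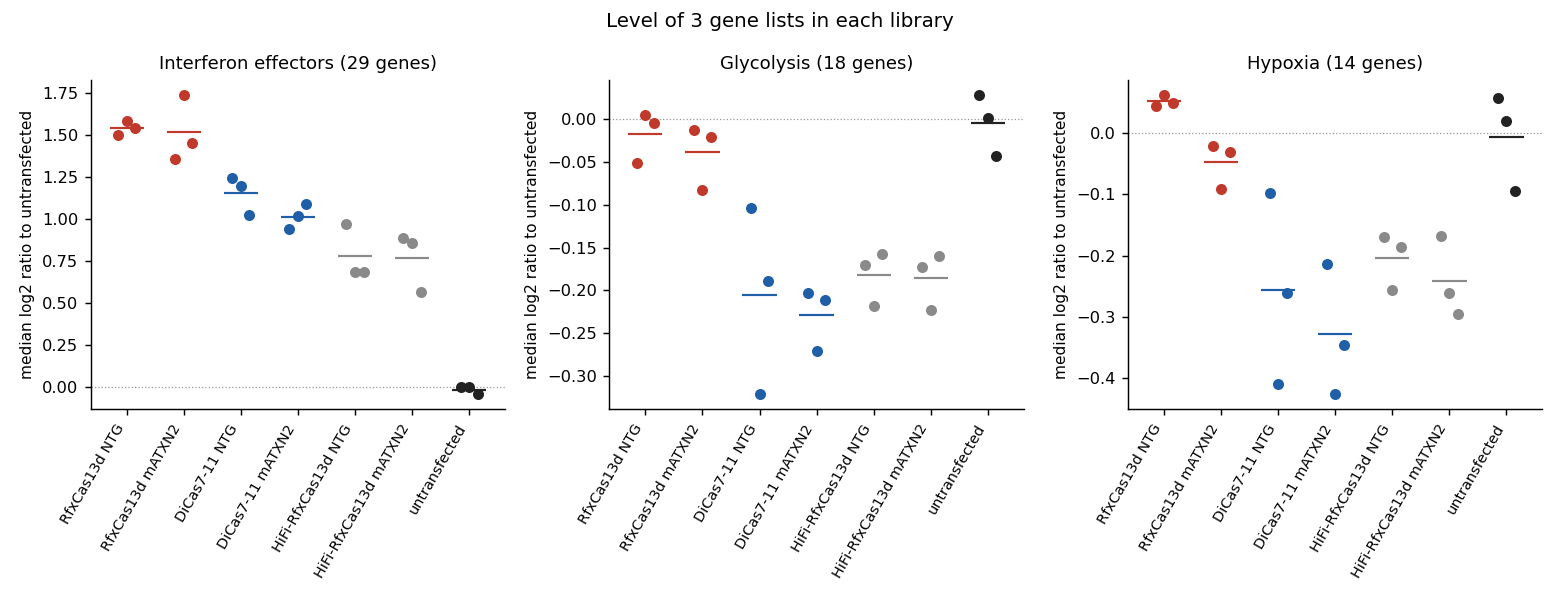
Median log2 ratio to the mean of untransfected cells over the members of the interferon effector, glycolysis and hypoxia lists (vertical axis, 0.5 CPM added), 1 point per library and a bar at the mean of each group of 3. For the effectors every DiCas7-11 point (0.94 to 1.24) lies below every RfxCas13d point (1.36 to 1.74), and for glycolysis and hypoxia the RfxCas13d points lie near those of untransfected cells while the DiCas7-11 points lie lower.

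With 18 of 29 effectors lower, the 250 bases before the start sites of the list were searched, and a few are shown. An interferon response element was searched as GAAANNGAAA on either strand, overlapping matches included. The other motif used here, ACGTG, cannot occur within it. Of 25 promoters given by RefSeq (GRCm38.p6) for 22 of the 29 tested effectors, 11 held it (44.0%), against 2.98% of 32851 mouse promoters of the same length. Of the 13 promoters given for effectors called lower 6 held it (46.2%), a share near that of all tested effectors. Of the 10 promoters given for sensors 0 held it. These are matches of letters, not measured binding sites. Those given for the called genes Psmb8, Oasl2, Xaf1, Irf7 and Ddx58 held 0 matches. Of the promoters that hold a match, those of 3 called effectors whose libraries did not overlap, and of Irgm2, an interferon-inducible GTPase, are shown with the matching bases in capitals. Oas1a lies at chr5:120907526-120907775 (minus strand), Bst2 at chr8:71537473-71537722 (minus strand), B2m at chr2:122147437-122147686 (plus strand) and Irgm2 at chr11:58214727-58214976 (plus strand), all in GRCm38.p6 and written 5′ to 3′ along the gene.
Oas1a: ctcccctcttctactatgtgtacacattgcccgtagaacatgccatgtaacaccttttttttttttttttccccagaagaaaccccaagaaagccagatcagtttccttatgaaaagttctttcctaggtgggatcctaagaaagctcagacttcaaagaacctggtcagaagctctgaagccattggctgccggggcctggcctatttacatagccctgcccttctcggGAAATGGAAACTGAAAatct
Bst2: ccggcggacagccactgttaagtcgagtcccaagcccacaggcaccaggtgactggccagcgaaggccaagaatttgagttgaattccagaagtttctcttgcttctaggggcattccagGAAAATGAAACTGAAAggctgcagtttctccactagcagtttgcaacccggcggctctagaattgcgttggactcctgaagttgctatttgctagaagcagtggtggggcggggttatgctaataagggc
B2m: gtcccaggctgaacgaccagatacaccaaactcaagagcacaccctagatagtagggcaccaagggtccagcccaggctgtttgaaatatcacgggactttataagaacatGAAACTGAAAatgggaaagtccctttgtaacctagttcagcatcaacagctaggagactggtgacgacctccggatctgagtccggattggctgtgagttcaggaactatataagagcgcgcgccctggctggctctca
Irgm2: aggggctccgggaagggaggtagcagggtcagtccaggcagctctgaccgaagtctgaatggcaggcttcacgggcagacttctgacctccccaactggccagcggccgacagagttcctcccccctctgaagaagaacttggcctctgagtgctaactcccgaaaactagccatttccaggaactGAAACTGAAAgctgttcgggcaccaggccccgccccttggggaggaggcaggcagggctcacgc
In Oas1a 4 bases lie between the matching stretch and the start site, and in Irgm2 54 bases.

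Interferon-inducible genes outside the list were among the 12 largest falls, ranked over called genes with a mean of at least 50 counts, the same direction in each arm and no predicted gene. Irgm2 held 5.81, 7.25 and 8.55 CPM with DiCas7-11 and 11.2, 13.1 and 14.5 with RfxCas13d (-0.85 ± 0.09, adjusted p = 1.89e-07). Lgals9, which encodes the lectin galectin-9, held 33.2, 35.8 and 38.1 CPM against 47.5, 56.4 and 62.2 (-0.66 ± 0.06, adjusted p = 4.64e-09). Neither gene's libraries overlapped. The neighbouring apolipoprotein L genes Apol9b (-0.65 ± 0.11) and Apol9a (-0.64 ± 0.09) fell by like amounts, and as near-identical copies they may share reads. Xaf1 (-0.75 ± 0.20, adjusted p = 0.0113), an interferon-inducible pro-apoptotic gene, is an effector of the list and was, with Oas1a and Usp18, among these 12. Chosen after their values were seen, Helz2 (-0.48 ± 0.06), Lgals3bp (-0.51 ± 0.07), Ifitm3 (-0.53 ± 0.12) and the MHC class I genes H2-K1 (-0.23 ± 0.02) and H2-D1 (-0.21 ± 0.03) were also called lower.

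**Figure D3:**
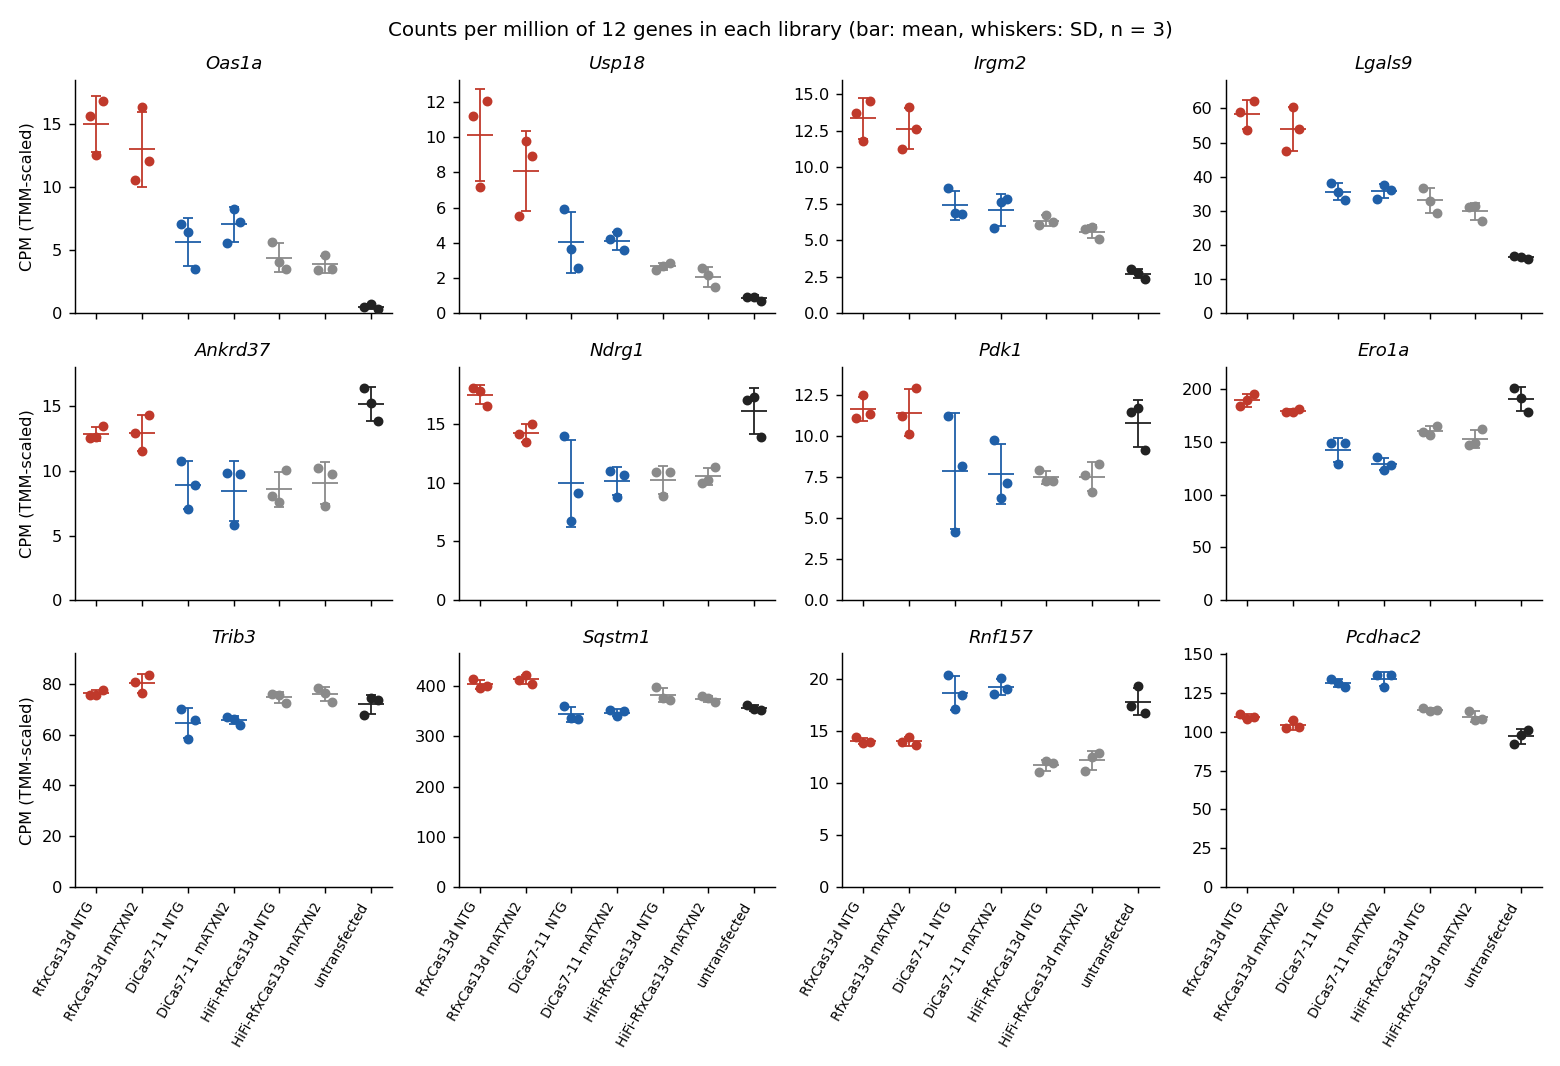
CPM of 12 genes in each library (points), with the mean and SD of each group of 3 (bar and whiskers); all vertical axes start at 0. The interferon-inducible genes in the top row are highest with RfxCas13d and lowest in untransfected cells, whereas Ankrd37, Ndrg1, Pdk1 and Ero1a have untransfected means of 15.2, 16.1, 10.8 and 190.2 CPM, near those with RfxCas13d, and are lower with DiCas7-11.

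Glycolysis and hypoxia genes were lower with DiCas7-11 almost throughout. Of 18 tested glycolysis genes 17 fell (94.4%, median -0.18), and of 14 tested hypoxia genes 11 fell (78.6%, median -0.28), against 6.06% of all genes, and 0 of either list rose. The muscle isoform of phosphofructokinase, Pfkm, was the glycolysis gene that was not called (0.005 ± 0.022), and Hif1a (-0.05), Egln1 (-0.09, adjusted p = 0.0501) and Kdm3a (-0.06) were the hypoxia genes that were not. For 12 of the 32 members all 6 DiCas7-11 libraries were below all 6 RfxCas13d libraries.

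Among the hypoxia genes, Ankrd37 held 5.81, 9.31 and 10.7 CPM (lowest, median and highest) with DiCas7-11 and 11.5, 12.8 and 14.3 with RfxCas13d (-0.57 ± 0.11, adjusted p = 0.00112), with no overlap. Egln3, an oxygen-dependent prolyl hydroxylase that marks hypoxia-inducible factor for destruction, held 0.702, 0.953 and 1.18 CPM against 1.49, 1.67 and 1.79 (-0.82 ± 0.19, adjusted p = 0.00352), with no overlap. Ndrg1, a stress-induced gene, held 6.72, 9.89 and 14 CPM against 13.4, 15.8 and 18.1 (-0.66 ± 0.12, adjusted p = 0.000427), with the highest DiCas7-11 library inside the RfxCas13d range. Adm, which encodes the vasodilator adrenomedullin, held 0.535, 1.32 and 2.71 CPM against 1.77, 2.51 and 3.25 (-0.76 ± 0.24, adjusted p = 0.0325). Its groups overlapped, the call was lost in 7 alternatives, and the difference was -1.40 in the NTG arm and -0.13 in the mATXN2 arm. Vegfa, the angiogenic growth factor, held 155, 171 and 181 CPM against 193, 199 and 209 (-0.23 ± 0.03, adjusted p = 1.17e-05), with no overlap. Bnip3, a mitophagy receptor, held 45.3, 55.9 and 69.8 CPM against 68.1, 78.7 and 82.6 (-0.47 ± 0.10, adjusted p = 0.00126), and its ranges overlapped at the edge.

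Along the glycolytic pathway the differences were smaller and were found at nearly every step. The glucose transporters Slc2a1 (-0.29 ± 0.08) and Slc2a3 (-0.21 ± 0.03) and the hexokinases Hk2 (-0.20 ± 0.03) and Hk1 (-0.10 ± 0.02) were lower. Among the later enzymes, Aldoc held 5.35, 8.31 and 9.64 CPM against 9.77, 10.6 and 11.2 (-0.41 ± 0.10, adjusted p = 0.00599). Eno2, the neuronal enolase, held 36.5, 46.9 and 51.9 CPM against 55.4, 60.2 and 65.7 (-0.40 ± 0.07, adjusted p = 0.000148). Neither gene's libraries overlapped. Pgk1 held 406, 467 and 490 CPM against 516, 541 and 572 (-0.27 ± 0.04, adjusted p = 7.54e-06), also with no overlap. Gapdh, often taken as a reference gene, held 1855, 1947 and 2077 CPM against 2108, 2133 and 2160.3 (-0.13 ± 0.02, adjusted p = 8.72e-05). Actb, another common reference and chosen here after its values were seen, was lower too (-0.16 ± 0.02).

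The other groups placed these genes in a different order than the interferon genes. For all 28 called members the untransfected mean was above the DiCas7-11 mean, and the HiFi-RfxCas13d mean was below the RfxCas13d mean. Ankrd37 averaged 15.2 CPM in untransfected cells, 12.9 with RfxCas13d, 8.83 with HiFi-RfxCas13d and 8.67 with DiCas7-11. Eno2 averaged 73.9, 60.2, 46.8 and 45.5 CPM in the same order of groups. In single libraries the median hypoxia gene ranged from -0.10 to -0.43 with DiCas7-11 and from -0.09 to 0.06 with RfxCas13d, relative to untransfected cells, and the DiCas7-11 NTG library numbered 1 was the highest of its effector, at -0.10.

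The core of the hypoxia response element, ACGTG, was searched on either strand in the same 250 bases, where a CACGTG is counted on both strands. It was found in 9 of 16 promoters given for 12 of the 14 tested hypoxia genes (56.2%) and in 10 of 28 promoters given for 17 of the 18 glycolysis genes (35.7%), against 16.6% of all 32851 promoters. For the genes called lower the shares were near these, with 7 of 11 hypoxia promoters (63.6%) and 8 of 24 glycolysis promoters (33.3%). Called genes need not hold it here: it was in 1 of 2 Vegfa promoters and in 0 of those given for Pdk1, Eno2 and Aldoc. The call of Pdk1 was lost in 4 alternatives. The promoters of Ankrd37 at chr8:45999851-46000100 (minus strand), Egln3 at chr12:54203875-54204124 (minus strand), Bnip3 at chr7:138909507-138909756 (minus strand) and Pgk1 at chrX:106186850-106187099 (plus strand) are shown as called genes that hold the letters, with matches in capitals.
Ankrd37: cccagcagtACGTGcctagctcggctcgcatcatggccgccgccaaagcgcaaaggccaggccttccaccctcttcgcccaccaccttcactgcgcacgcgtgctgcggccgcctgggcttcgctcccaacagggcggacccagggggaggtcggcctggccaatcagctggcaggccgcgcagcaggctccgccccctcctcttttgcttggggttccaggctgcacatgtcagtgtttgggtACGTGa
Egln3: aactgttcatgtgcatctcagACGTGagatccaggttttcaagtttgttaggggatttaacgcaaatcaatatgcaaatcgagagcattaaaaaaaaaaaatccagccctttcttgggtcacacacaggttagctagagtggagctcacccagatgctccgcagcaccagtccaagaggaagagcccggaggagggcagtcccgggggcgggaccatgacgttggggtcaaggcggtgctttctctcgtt
Bnip3: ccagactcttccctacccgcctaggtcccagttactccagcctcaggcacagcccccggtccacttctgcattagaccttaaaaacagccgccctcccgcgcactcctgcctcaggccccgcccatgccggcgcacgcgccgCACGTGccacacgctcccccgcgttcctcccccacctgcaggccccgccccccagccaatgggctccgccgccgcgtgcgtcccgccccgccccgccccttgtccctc
Pgk1: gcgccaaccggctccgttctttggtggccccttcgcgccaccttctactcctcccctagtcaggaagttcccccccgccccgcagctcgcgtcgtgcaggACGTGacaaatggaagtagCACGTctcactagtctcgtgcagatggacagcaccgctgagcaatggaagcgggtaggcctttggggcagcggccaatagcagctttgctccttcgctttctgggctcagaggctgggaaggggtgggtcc
In Ankrd37 the nearer match lies 1 base before the start site, in Pgk1 126 bases and in Egln3 224 bases.

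The integrated stress response, in which phosphorylated eIF2 favours translation of the transcription factor ATF4 and so raises genes of amino acid supply, held more called members lower than higher with DiCas7-11, while the unfolded protein response of the endoplasmic reticulum was split. Of 27 tested integrated stress response genes 14 fell (51.9%, against 6.06% of all genes) and 1 rose, with a median of -0.09. Of 24 unfolded protein response genes 4 fell (16.7%) and 6 rose, with a median of 0.01. Trib3, a pseudokinase induced by ATF4, held 58.1, 65.9 and 69.9 CPM against 75.6, 76.9 and 83.6 (-0.26 ± 0.04, adjusted p = 1e-05). Asns, asparagine synthetase, held 577, 604 and 627 CPM against 660, 666 and 680 (-0.15 ± 0.01, adjusted p = 2.16e-09). Slc7a11, the cystine transporter (-0.25 ± 0.04), Ddit4, an inhibitor of mTORC1 (-0.24 ± 0.04), and Chac1, which breaks down glutathione (-0.23 ± 0.04), fell with no overlap of libraries, and Nupr1 (-0.23 ± 0.07) fell with overlap, a call lost in 6 alternatives. Atf4 itself fell by 0.08 on the log2 scale. The chaperone genes Hyou1 (0.11 ± 0.02, adjusted p = 1.42e-05), Dnajc3 (0.12 ± 0.03) and Hspa5 (0.10 ± 0.02) rose, and Herpud1 (-0.15 ± 0.03) and Edem2 (-0.17 ± 0.04), which act in disposal of misfolded proteins, fell. Of the 14 integrated stress response genes that fell, untransfected cells had the higher mean than DiCas7-11 for 13, and HiFi-RfxCas13d had the higher mean than DiCas7-11 for all 14.

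Some genes of lysosomes and autophagy, and some targets of NRF2, the transcription factor of the oxidative stress response, were lower as well. In the lysosome and autophagy list 11 of 36 fell (30.6%) and 1 rose, and in the NRF2 list 7 of 19 fell (36.8%) and 1 rose, against 6.06% lower and 5.29% higher over all genes. Sqstm1, the autophagy receptor p62 and a member of both lists, held 334, 345 and 361 CPM against 396, 409 and 422 (-0.24 ± 0.02, adjusted p = 2.16e-09). Lamp2, a lysosomal membrane protein, held 101, 107 and 114 CPM against 116, 121 and 135 (-0.21 ± 0.02, adjusted p = 9.5e-07). Ctsb, the protease cathepsin B, held 166, 179 and 190 CPM against 200, 202 and 209 (-0.20 ± 0.03, adjusted p = 7.54e-06). Hmox1, heme oxygenase 1, held 53, 56.8 and 60.1 CPM against 66, 67.1 and 68.9 (-0.25 ± 0.03, adjusted p = 9.55e-06). In none of these 4 genes did the libraries of the effectors overlap. Gstm1 (-0.26 ± 0.06) and G6pdx (-0.16 ± 0.02) also fell, while Nfe2l2, which encodes NRF2, rose (0.13 ± 0.04, adjusted p = 0.0186). Of the 11 lysosome and autophagy genes that fell, all 11 had a higher mean in HiFi-RfxCas13d and in untransfected cells than with DiCas7-11.

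Of the cell cycle genes few passed the test, and most that did were higher with DiCas7-11 by small amounts. Of 40 genes of DNA replication 7 rose (1 fell, Mcm2, chosen after its value was seen), with a median of 0.03, and of 35 mitotic genes 4 rose and 0 fell, also with a median of 0.03, against 5.29% higher and 6.06% lower over all genes. Ccne1, the cyclin of entry into S phase, held 33.6, 35.0 and 36.3 CPM against 30.1, 31 and 33.2 (0.15 ± 0.04, adjusted p = 0.00943), and Lig1, the replicative DNA ligase, 191, 197 and 207 CPM against 177, 183 and 187 (0.11 ± 0.02, adjusted p = 0.00207). Neither overlapped between effectors. Hmmr (0.12 ± 0.03), the proliferation marker Mki67 (0.12), Foxm1 (0.09 ± 0.02) and Ccnb2 (0.10), whose call was lost in 15 alternatives, were called in the mitotic list. These counts move with the libraries used: leaving out 1 library at a time gave 4 to 10 replication genes and 3 to 10 mitotic genes higher, with 10 in each list without the NTG replicate 1 of DiCas7-11 and 4 replication genes without its mATXN2 replicate 3.

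Counts in the next lists are to be read against 6.06% of all genes lower and 5.29% higher. Of 28 immediate early genes 6 fell and 0 rose, led by Ier3, held at 13.8, 16.1 and 18.8 CPM against 19.96, 23 and 23.5 (-0.47 ± 0.06, adjusted p = 9.44e-06), Gdf15 (-0.36 ± 0.07), Btg2 (-0.24 ± 0.07, a call lost in 9 alternatives) and Egr1 (-0.19 ± 0.03), and 1 of 8 kinases of that list rose. Of 12 inflammatory genes 3 fell, namely Tnfaip2 (-0.61 ± 0.12), the chemokine gene Cxcl1 (-0.56 ± 0.13) and Il6 (-0.36 ± 0.08). Among cytosolic ribosomal protein genes 13 of 79 fell and 2 rose, with Rps4x at 1293, 1329 and 1345 CPM against 1439, 1472 and 1545 (-0.16 ± 0.01, adjusted p = 2.16e-09). Aminoacyl-tRNA synthetases fell for 5 of 20, led by Nars (-0.13 ± 0.02) and Sars (-0.12 ± 0.02), and fatty acid synthesis genes for 5 of 14, led by Acss2 (-0.22 ± 0.05). When 1 library was left out, 3 to 6 synthetases and 4 to 5 fatty acid synthesis genes were lower. Ataxin-2 and its partners had 5 of 14 lower, among them Atxn2 itself, the poly(A)-binding protein genes Pabpc4 (-0.12 ± 0.02) and Pabpc1 (-0.11 ± 0.02) and the stress granule gene G3bp2 (-0.12 ± 0.02), and 1 higher, Usp10 (0.11 ± 0.02).

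The remaining lists are given by their counts, against the same shares of all genes. Stress granule genes had 2 higher and 4 lower (14.3%) of 28, mRNA decay genes 5 higher and 2 lower of 44 (led by Smg6, 0.23 ± 0.05), splicing factors 1 higher and 6 lower (15.4%) of 39, oxidative phosphorylation 3 higher and 6 lower of 81 (the largest called change being that of Sdhc, -0.20 ± 0.02), p53 targets 1 higher and 2 lower of 19, cholesterol synthesis 2 higher and 2 lower of 28, chaperones 1 higher and 1 lower of 29, tRNA splicing and RNA repair 1 higher and 1 lower of 14, and neuroblastoma transcription factors 3 higher and 2 lower of 19. Among these, Cdkn1a, the p53-induced cell cycle inhibitor p21, fell (-0.15), the sterol enzymes Hsd17b7 (0.12, a call lost in 1 alternative) and Sqle (0.11) rose, and the neuronal transcription factors Zfhx3 (0.20) and Insm1 (0.14) rose while Gata2 (-0.13) fell, a call lost in 8 alternatives. Mitochondrial ribosomal proteins had 1 lower of 78 (Mrpl28, whose call was lost in 13 alternatives) and replication-dependent histones 0 of 36. There H2ac18 had the smallest p (adjusted p = 0.0557), with 0 CPM in all 6 DiCas7-11 libraries and 0 to 1.04 CPM with RfxCas13d, and it was called in 6 alternatives. With a mean of 3.85 counts over the 12 libraries, no fold is given for it. Genes of neurite cytoskeleton and secretion had 2 higher and 6 lower of 41, including Map1b (-0.19 ± 0.03), Syt4 (-0.22 ± 0.04) and the marker Tubb3 (-0.12 ± 0.02). Some counts of this paragraph moved with the libraries used. Leaving out 1 library at a time gave 1 to 4 splicing factors higher and 2 to 6 lower. For oxidative phosphorylation it gave 0 to 3 higher and 4 to 11 lower, for mRNA decay 2 to 5 and 0 to 2, and for chaperones 0 to 3 and 1 to 5.

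Under the same ranking, the 12 largest rises ran from 0.34 to 0.67 on the log2 scale. H2-DMa, which helps load peptides on MHC class II, held 3.03, 4.24 and 5.77 CPM with DiCas7-11 and 2.43, 2.53 and 2.92 with RfxCas13d (0.67 ± 0.15, adjusted p = 0.00346), with no overlap. Sapcd1 (0.56 ± 0.11), Zdhhc1, a palmitoyltransferase gene (0.50 ± 0.12), and Bend6 (0.45 ± 0.10) followed. Rnf157, a ubiquitin ligase gene, was the most precise of the 12, at 17.2, 18.8 and 20.5 CPM against 13.7, 14 and 14.5 (0.43 ± 0.06, adjusted p = 7.54e-06), with no overlap. Its untransfected mean was 17.9 CPM and its HiFi-RfxCas13d mean 12 CPM. The others were Dbx2 (0.39 ± 0.12), Zfp580 (0.39 ± 0.11), Prrxl1 (0.39 ± 0.08), Zranb1 (0.37 ± 0.11), Ccdc57 (0.35 ± 0.09), Rab30 (0.35 ± 0.09) and Arhgdig (0.34 ± 0.08). Of these, Dbx2 lost its call in 11 alternatives, Zranb1 in 6, Zfp580 in 4 and Ccdc57 in 1.

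Among the falls outside the interferon and hypoxia genes, Vwa1, an extracellular matrix gene, had the largest fitted value of those with a mean of at least 50 counts (-1.53 ± 0.43, adjusted p = 0.0186) and rests on 1 library: the mATXN2 replicate 2 of RfxCas13d held 32.8 CPM, whereas the median of the 6 was 3.23, and without it the difference was -0.39 and not called (adjusted p = 0.112). Tnnt2, a troponin gene, held 2.74, 3.71 and 5.06 CPM against 5.94, 6.76 and 7.34 (-0.82 ± 0.11, adjusted p = 4.39e-06). Fblim1, which encodes a cell adhesion protein, held 3.19, 3.68 and 4.38 CPM against 5.45, 6.15 and 6.85 (-0.72 ± 0.11, adjusted p = 4.3e-05), and Selenbp1, a selenium-binding protein gene, 1.90, 2.96 and 3.36 CPM against 3.70, 4.45 and 6.34 (-0.77 ± 0.17, adjusted p = 0.00286). None of these last 3 overlapped between the effectors.

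The 5 smallest p-values belonged to genes that shifted by moderate amounts with little spread. Bhlhb9 held 171, 186 and 191 CPM with DiCas7-11 and 226, 234 and 235 with RfxCas13d (-0.35 ± 0.02, adjusted p = 1.37e-12), while HiFi-RfxCas13d and untransfected cells averaged 235 and 232 CPM. Ero1a, an oxidase of the endoplasmic reticulum that hypoxia induces, held 123, 132 and 149 CPM against 178, 182 and 195 (-0.45 ± 0.03, adjusted p = 1.05e-09). Pcdhac2, a protocadherin, held 129, 133 and 137 CPM against 102, 108 and 111 (0.31 ± 0.02, adjusted p = 1.05e-09). Sec63, part of the translocation channel of the endoplasmic reticulum, held 215, 233 and 250 CPM against 256, 275 and 284 (-0.24 ± 0.02, adjusted p = 1.49e-09), and Sparc, a matrix glycoprotein, 100, 105 and 113 CPM against 123, 136 and 143 (-0.34 ± 0.03, adjusted p = 1.8e-09). All 5 separated the effectors without overlap.

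The effector difference was then compared between the crRNA arms, which share no library. In the NTG arm 471 genes were called (3.39%; 153 higher and 318 lower with DiCas7-11) and in the mATXN2 arm 831 (5.98%; 370 higher and 461 lower). Called in both arms separately were 232 genes, which is 49.3% of the NTG list and 27.9% of the mATXN2 list, all in the same direction. Of the genes called in the NTG arm 94.3% had the same sign in the mATXN2 arm, and of those called in the mATXN2 arm 93.0% in the NTG arm, against 62.2% of all genes. The genes called in the NTG arm had a median size of 0.20 there and 0.15 in the other arm, and those called in the mATXN2 arm 0.18 there and 0.096 in the other.

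The difference between the arms was called for 0 of 13901 genes (0%) with edgeR and with limma-trend, and for 3 genes with DESeq2, while 1084 had an unadjusted p under 0.05. The smallest adjusted p was 0.319. The NTG-arm count and its balance of directions depended on single libraries: without the DiCas7-11 NTG replicate 1 it was 915, with 444 higher and 471 lower. Without each of the other NTG libraries of either effector it was between 214 and 256, of which 45 to 65 were higher. The mATXN2-arm count was 475 to 553 without each of its own libraries. The interferon effectors had 17 members called and a median of -0.49 in the NTG arm, and 8 called and a median of -0.33 in the mATXN2 arm. Glycolysis genes had 12 and 10 called with medians of -0.18 in each, and hypoxia genes 6 and 7 called with medians of -0.27 and -0.26.

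**Figure D4:**
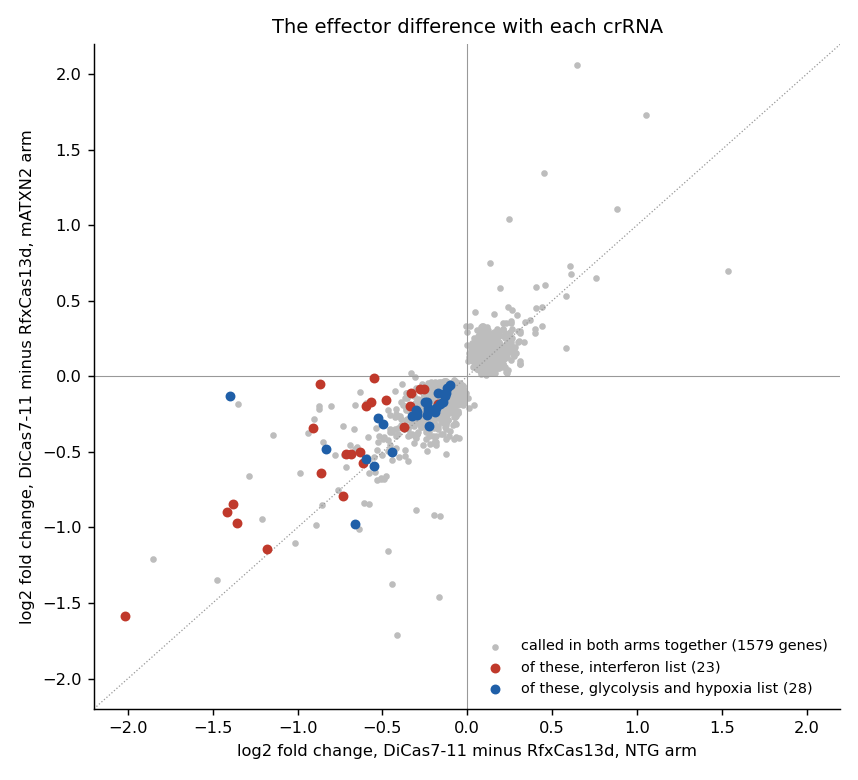
Log2 fold change of DiCas7-11 minus RfxCas13d in the NTG arm (horizontal axis) and in the mATXN2 arm (vertical axis) for the 1579 genes called in the average of both arms, with the 23 called interferon genes and the 28 called glycolysis and hypoxia genes in colour; 10 genes lie outside the axes. The genes were selected on the average of the axes, and every coloured point lies below 0 in both arms.

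Coding length moved with the direction of the calls. Among genes with a mean of at least 50 counts, split into 5 groups of like size by coding length (GRCm38, GENCODE M21), the shortest group (114 to 783 bases) had 75 genes higher and 184 lower with DiCas7-11, and the longest (2580 to 26400 bases) 286 higher and 128 lower. The median change over all genes of a group went from -0.006 in the shortest to 0.02 in the longest. Genes for giant proteins had a median of 0.05, with 6 higher and 3 lower of 47, and this count of 6 was 1 without the NTG replicate 3 of DiCas7-11 and 10 without its NTG replicate 2. The 4 largest called changes were those of Bsn (0.23 ± 0.07), Mdn1 (0.20 ± 0.06), Syne1 (-0.18 ± 0.05) and Ahnak (-0.18 ± 0.05), of which the call was lost in 13 alternatives for Bsn, 5 for Mdn1 and 1 for Syne1. With each library corrected for coding length, 1513 genes were called, the interferon list had 23 members called lower and the glycolysis and hypoxia list 29. The giant-protein list then had 5 members higher and 6 lower. The part of length in the calls was otherwise not tested.

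**Figure D5:**
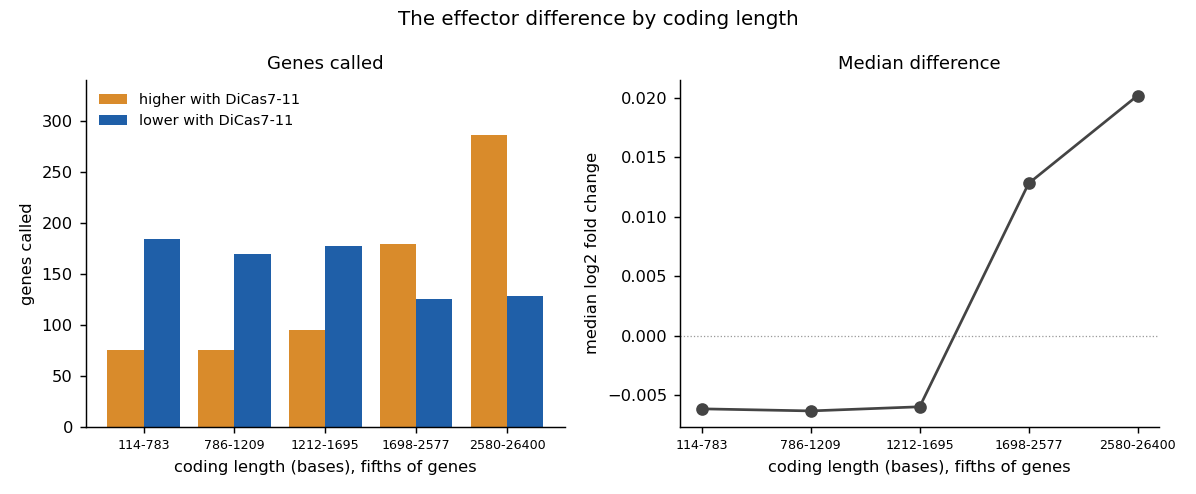
Left, number of genes called higher or lower with DiCas7-11 in each of 5 groups by coding length (bases). Right, median log2 fold change over all genes of the group; the calls higher go from 75 in the shortest group to 286 in the longest, while the median moves from -0.006 to 0.02.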

How the data were processed

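RNA-seq libraries of Neuro2A cells (Kapa Hyper Stranded mRNA kit, single-end NovaSeq reads) took their effector and crRNA from the sample labels; the sources describe each replicate as an independent biological replicate. The authors quantified reads with Salmon (version 1.5.2, per the submitters' processing notes, which also name GRCm39 and R 4.2.2) against the NCBI mouse transcriptome with sequence and GC bias correction, and summarised them to genes with tximport's lengthScaledTPM. The authors deposited these values as estimated counts for 39253 genes, which are not normalized for library size. Because such counts are scaled by transcript length and bias models, small differences between isoforms or near-identical copies can move a gene's value.

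Here the counts were rounded and analysed with edgeR 4.0.16 in R 4.3.3. The 13901 genes reaching 0.5 CPM in 3 or more of the 24 libraries were tested (the rest hold 0.0524% of the counts), after TMM normalization, by the quasi-likelihood test on all 24 libraries in 8 groups. P-values were adjusted by Benjamini-Hochberg for each contrast, with a threshold of 0.05. The contrasts were the mean of both DiCas7-11 groups minus the mean of both RfxCas13d groups, the same within each arm, and the difference between the arms. CPM are TMM-scaled. Alternatives were DESeq2 1.42.0, its size factors in edgeR, limma-trend 3.58.1 with a prior count of 3, every gene with a nonzero count, only the 12 libraries (also with the arm as an additive term), the replicate number as a block, a correction for coding length (87.2% of tested genes had one) and leaving out each library. The scripts were tested on simulated data.

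The rule for named genes was Atxn2; the 12 largest rises and falls among called genes averaging 50 counts or more and moving one way in each arm, without predicted genes, pseudogenes or small RNA genes; the 5 smallest p-values; and up to 4 called members per list. The members and lists were chosen with earlier results of these data known. Lists are described by counts and medians, with no set test. Values of some list members and markers are not reported here.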

Additional observations from a re-analysis of the deposited data

How the results depend on the processing

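The count of genes called in both arms together was 1579 as reported, 1359 to 1838 in the alternatives fitted on all 24 libraries, 1243 with only the 12 libraries of both effectors, 1210 with the arm as an additive term in these, and 1251 to 1931 when 1 library was left out. In the NTG arm the count was 471 as reported, 312 with only the 12 libraries of both effectors, and 214 to 915 when 1 library was left out. The share of these calls that were higher with DiCas7-11 was 32.5% as reported and 21.2% with only the 12 libraries. When 1 library was left out, this share ranged from 20.5% (without the NTG replicate 3 of DiCas7-11) to 48.5% (without its NTG replicate 1). In the mATXN2 arm the count was 831, and 475 to 1001 when 1 library was left out. The difference between the arms was called for 0 genes, for 72 with every nonzero gene tested, 4 under the replicate block, 3 with DESeq2, and 0 to 2 when 1 library was left out. Atxn2 ranged from -0.0851 to -0.103 on the log2 scale when 1 library was left out, and lost its call without RfxCas13d NTG replicate 3 (-0.0851). Why these values moved was not tested further.

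Of the values of single named genes under the alternatives, 2361 kept their direction and their side of the threshold, 230 lost the call, 6 gained it, all of them H2ac18, and 0 reversed. The calls lost most often were those of Ccnb2 (15 settings), Bsn (13), Mrpl28 (13), Hnrnpa0 (12) and Exosc9 (12). The interferon list had 20 to 24 members lower, and the glycolysis and hypoxia list 24 to 29, over all settings run.

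The replicate numbers were checked as a possible pairing. Same-numbered libraries of the effectors deviated from their group means with correlations of -0.0558 to 0.0275, and not every library correlated best with its own number. Whether same-numbered libraries shared a batch cannot be told from these correlations. Under the replicate block 1838 genes were called in both arms together (1575 shared with the 1579), 675 in the NTG arm, 1031 in the mATXN2 arm and 4 for the difference between the arms, and Atxn2 stayed called at -0.0941.

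Low genes rest on few counts: Oas2, Egln3 and Adm, which were called, had means of 20.3, 21.0 and 32.4 counts over the 12 libraries. List members such as Ifi44 or Ifih1, at under 1 CPM, were not called, and whether depth was the reason was not tested.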
